A study of Mus musculus with 9 samples.

Results

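Neurexins, neuroligins and leucine-rich repeat transmembrane proteins (LRRTMs) are the adhesion proteins that hold the presynaptic and postsynaptic sides of a synapse together. The genes followed here, 10 in all, were the neurexins Nrxn2 and Nrxn3, the neuroligins Nlgn1, Nlgn2 and Nlgn3, the LRRTMs Lrrtm1, Lrrtm2, Lrrtm3 and Lrrtm4, and the neurexin relative Cntnap2. A gene's probe sets were those whose platform annotation gave that symbol alone, and its value was the mean log2 signal of the probe sets whose mean over the 9 arrays reached the median of the whole table, 6.07. All 10 genes were measured among 16770 genes, on 201 of their 206 annotated probe sets. The number of probe sets used ran from 4 for Lrrtm2 to 50 for Nrxn2. The 5 probe sets left out had means of 5.48 for Nrxn3, 4.79 and 3.84 for Nrxn2, 3.36 for Nlgn1 and 2.64 for Lrrtm1, and the dimmest that were used had means of 6.15 for Nrxn2 and 6.27 for Nrxn3.

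The study measured exon-level RNA signal in primary neurons from the cortex of C57BL/6 mouse embryos at embryonic day 15. The cultures received AraC, which kills dividing cells, on day 2, were infected for 4 h with lentivirus on day 5, and gave RNA on day 11. RNA from neurons with a control hairpin (shCont) was run on 3 arrays, from neurons with the Tdp-43 hairpin shTdp-43-1 on 3, and from neurons with another Tdp-43 hairpin, shTdp-43-2, on 3. Tdp-43, encoded by Tardbp, is an RNA-binding protein that regulates splicing and RNA level, and all 3 groups carried a lentiviral hairpin. The series description names motor neurons where the sample labels name cortical neurons, and the labels were followed. The labels do not say whether replicates came from separate cultures, so the p-values measure the spread between these arrays, which may be technical.

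Neurexins are presynaptic receptors with large extracellular domains that are diversified by alternative splicing and alternative promoters. They bind neuroligins, LRRTMs and secreted adaptors such as cerebellins across the cleft, and the partner chosen depends on the neurexin's splice form. Nlgn1 is associated with excitatory synapses and Nlgn2 with inhibitory synapses, and Nlgn3 is found at both. Cntnap2 encodes Caspr2, a neurexin-related protein that, with contactin-2, gathers Kv1 potassium channels along the axon, and its gene is one of the longest in the mouse genome.

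Tardbp read 9.77, 9.94 and 10.06 on the log2 scale on the shCont arrays, 7.84, 8.23 and 8.55 with shTdp-43-1, and 8.22, 8.58 and 7.90 with shTdp-43-2. The signal fell to 30.4% of control with shTdp-43-1 and to 30.9% with shTdp-43-2 (limma adjusted p = 0.00035 and 0.00011), and the hairpins differed by 0.03 (95% interval -0.38 to 0.43). Array medians lay between 6.04 and 6.19, and arrays correlated with each other at 0.966 or above. Of the marker lists, fibroblast and pericyte genes had the largest median change with shTdp-43-2 (-0.56): 4 of 7 fell, beside 14.1% of all genes lower. The other 3, Col1a1, Col1a2 and Col3a1, were not called and each read 0.14 higher. The log2 of the summed signal of this list ran from 11.978 to 11.996 on the shCont arrays, from 11.69 to 11.70 with shTdp-43-1 and from 11.31 to 11.44 with shTdp-43-2. Of 8 astrocyte markers, Aqp4 fell with both hairpins (-0.43 and -0.59) and Gja1 with shTdp-43-2 (-0.36), and the log2 of their summed signal ran from 13.60 to 13.91 on the shCont arrays, from 13.56 to 13.68 with shTdp-43-1 and from 13.51 to 13.59 with shTdp-43-2. The mean of the 7 excitatory neuron markers lay between 10.44 and 10.57 on the shCont arrays, between 10.35 and 10.59 with shTdp-43-1 and between 10.27 and 10.42 with shTdp-43-2. The mean of the 8 inhibitory neuron markers lay between 10.27 and 10.49, between 10.28 and 10.55, and between 10.14 and 10.19 in the same order. These means hold changes of both signs. Over both hairpins, the excitatory markers Neurod6 (-0.60) and Slc17a6 (-0.29) fell, Camk2a (0.36) and Slc17a7 (0.39) rose, and 3 were not called. With shTdp-43-2, the inhibitory markers Sst (-1.30), Dlx1 (-0.36) and Gad1 (-0.32) fell, Gad2 (0.65) rose, and 4 were not called. The part of these shifts in the results below was not tested, and in RNA from a whole culture fewer cells of a type and less RNA per cell cannot be told apart.

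With shTdp-43-2, Lrrtm4 and Cntnap2 rose, and the other 8 adhesion genes did not pass the test. A gene is said to have risen or fallen where limma, fitted over all 16770 genes, gave a Benjamini-Hochberg adjusted p under 0.05. The 2 of 10 genes called, both higher, stand beside 21.9% of all genes called in either direction and 7.76% called higher, so the share of these genes that changed in either direction was near that of all genes. With shTdp-43-1, limma called 0 of the 10, beside 11.1% of all genes (5.16% higher and 5.96% lower), while Lrrtm1 (lower) and Nrxn3 (higher) made 2 genes with an unadjusted p below 0.05. The arrays of knockdown and control did not overlap for 2 of the 10 genes with shTdp-43-1, beside 35% of all genes, and for 5 with shTdp-43-2, beside 38.7%. The median size of change over the 10 genes was 0.05 with shTdp-43-1, against 0.14 over all genes, and 0.18 with shTdp-43-2, against 0.15. The hairpins were compared with the same 3 shCont arrays, so their results are given side by side and are not independent.

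**Figure D1:**
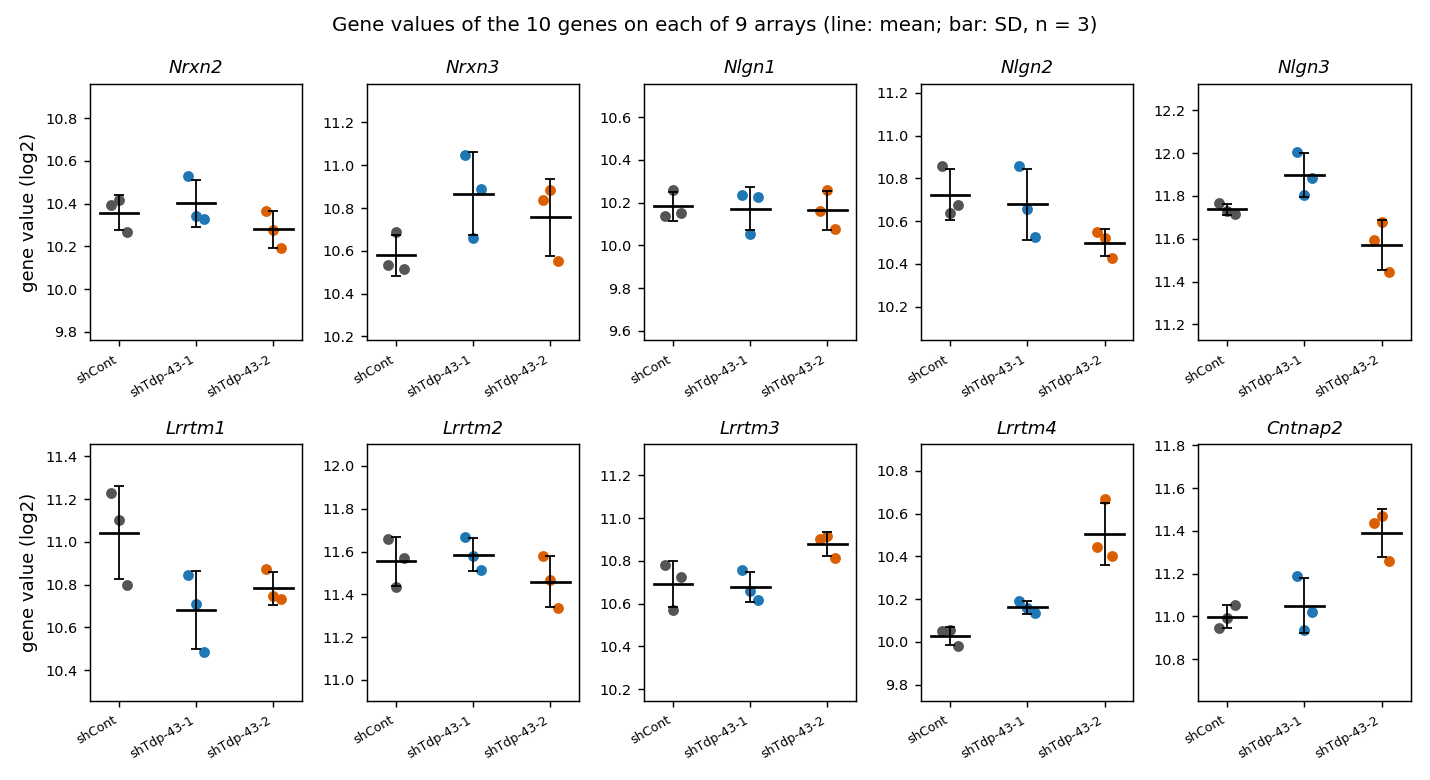
Gene values (log2, y axis) of the 10 adhesion genes on each of the 9 arrays, by hairpin (x axis), with the mean as a line and the SD as a bar (n = 3 arrays a group). The Lrrtm4 and Cntnap2 points of shTdp-43-2 lie above all points of the other groups, and the 3 shTdp-43-2 points of Nlgn3 lie below all others.

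Lrrtm4 encodes a postsynaptic partner of neurexins and heparan sulphate proteoglycans that takes part in excitatory synapse formation. Its values were 10.05, 10.05 and 9.98 on the shCont arrays, 10.19, 10.16 and 10.13 with shTdp-43-1, and 10.44, 10.67 and 10.40 with shTdp-43-2. The 3 groups formed separate layers, with every shTdp-43-1 array above every control array and every shTdp-43-2 array above those. The rise with shTdp-43-2 was 0.48 ± 0.0856 (SE, 95% interval 0.29 to 0.66), or 1.39-fold (limma adjusted p = 0.00235). With shTdp-43-1 the difference was 0.13 ± 0.0856 (95% interval -0.06 to 0.32, adjusted p = 0.332), and the gap between the hairpins was 0.34 ± 0.0856 (adjusted p = 0.0239). Over the mean of both hairpins Lrrtm4 was the 1 gene of the 10 that rose (0.30 ± 0.0741, adjusted p = 0.0150), beside 19.3% of all genes called, 7.42% higher and 11.9% lower. The call with shTdp-43-2 held in 19 of 19 other settings. That of the mean was lost without shCont replicate 1 (0.32, adjusted p = 0.0535), without shCont replicate 3 (0.28, adjusted p = 0.0672) and with the median of the probe sets (adjusted p = 0.104).

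The Lrrtm4 rise was spread over the gene's probe sets. With shTdp-43-2, 7 of its 8 probe sets were higher than control, with changes from -0.07 to 1.19 and a median of 0.37. The probe set with the largest change, 5388173, read 7.52, 8.57 and 7.81 in shCont, 8.39, 8.34 and 8.72 with shTdp-43-1 and 8.59, 9.87 and 9.001 with shTdp-43-2. It moved 0.82 more than the rest of the gene (limma diffSplice adjusted p = 0.0471). Without this probe set the gene's rise with shTdp-43-2 was 0.37 (limma adjusted p = 0.00711).

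Cntnap2 read 10.95, 10.99 and 11.06 on the shCont arrays, 11.19, 10.94 and 11.02 with shTdp-43-1, and 11.44, 11.47 and 11.26 with shTdp-43-2. All 3 shTdp-43-2 arrays were above the other 6, while the shTdp-43-1 arrays lay on both sides of control. The rise with shTdp-43-2 was 0.39 ± 0.0912 (95% interval 0.19 to 0.59), or 1.31-fold (limma adjusted p = 0.00988), and it was called in 18 of 18 other settings. With shTdp-43-1 the difference was 0.05 ± 0.0912 (95% interval -0.15 to 0.25, adjusted p = 0.744). The hairpins differed by 0.34 ± 0.0912 (adjusted p = 0.0334), and each of the 32 probe sets was higher with shTdp-43-2 than with shTdp-43-1, by 0.11 to 0.59. Cntnap2 over the mean of both hairpins was 0.22 higher (95% interval 0.05 to 0.39, adjusted p = 0.0734).

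The gene's mean hides a division among the Cntnap2 probe sets, which was noticed after the values were seen and is given as a description with no test. Ranked by how far each moved with shTdp-43-1 relative to the rest of the gene, the 32 probe sets fell into a group of 8 and a group of 24 with a gap of 0.33 between them, whereas the next widest gap was 0.07. The 8 were lower than control with shTdp-43-1, by 0.27 to 0.40, and the other 24 were higher, by 0.05 to 0.41. In 7 of the 8, every shTdp-43-1 array was below every control array. The mean of the 8 was 11.99, 12.05 and 12.15 on the shCont arrays, 11.70, 11.74 and 11.77 with shTdp-43-1, and 12.15, 12.19 and 12.13 with shTdp-43-2. The mean of the 24 was 10.60, 10.64 and 10.69 in shCont, 11.02, 10.67 and 10.77 with shTdp-43-1, and 11.20, 11.23 and 10.97 with shTdp-43-2. The distance between the groups of probe sets was thus 1.39, 1.41 and 1.46 in the 3 control arrays. It was 0.68, 1.07 and 1.00 with shTdp-43-1, and 0.95, 0.95 and 1.16 with shTdp-43-2. The split was made from the shTdp-43-1 and shCont arrays, so a smaller mean distance with shTdp-43-1 follows from it. The shTdp-43-2 arrays did not set the split, but they were compared with the same control arrays. With shTdp-43-2 the 8 stood between -0.04 and 0.17 from control and the 24 between 0.25 and 0.81. Single probe sets of Cntnap2 did not pass the usage test: for probe set 5581541, one of the 8, shTdp-43-1 gave a difference from the rest of the gene of -0.47 and shTdp-43-2 one of -0.45 (limma diffSplice adjusted p = 0.358 and 0.300). Exon positions of the probe sets were not used here, so where the 8 lie in the gene is not given.

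**Figure D2:**
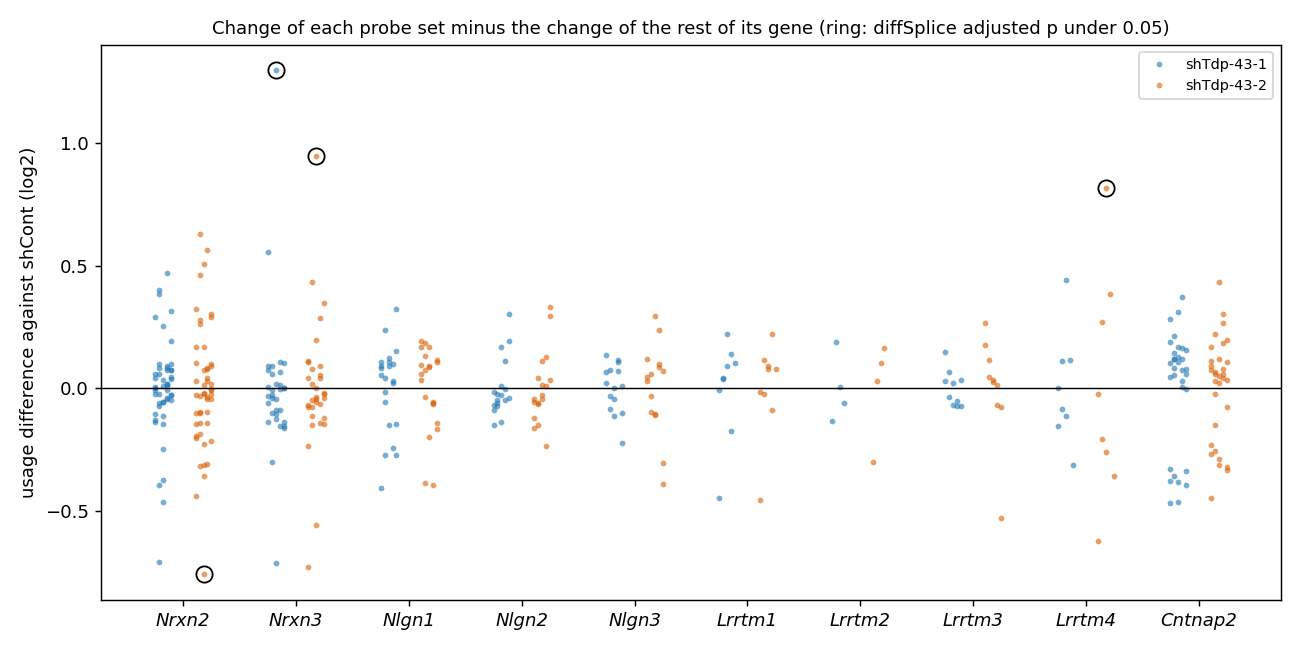
Each point is 1 probe set of a gene (x axis), placed at its change against shCont less that of the gene's other probe sets (log2, y axis) for each hairpin, and a ring marks a diffSplice adjusted p under 0.05. The Cntnap2 points of shTdp-43-1 form separate clusters of 8 and 24, and the Nrxn3 probe set 4477627 stands highest with both hairpins.

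The sequences just upstream of both genes that rose with shTdp-43-2 are shown. They are the 250 bases before the first start listed for each gene in the RefSeq promoter table (GRCm38.p6, both on the plus strand), at chr6:80018627-80018876 for Lrrtm4 and chr6:45059811-45060060 for Cntnap2. Lrrtm1 is listed on the same chromosome and strand (chr6:77242227-77242476), and it read -0.26 with shTdp-43-2 and was not called. Capitals mark matches to any of 5 motifs searched on both strands, with overlapping matches counted: the TATA box TATAAA, the CCAAT box, the GC box GGGCGG, the cAMP response element core TGACG and the repeat TGTGTG.
Lrrtm4: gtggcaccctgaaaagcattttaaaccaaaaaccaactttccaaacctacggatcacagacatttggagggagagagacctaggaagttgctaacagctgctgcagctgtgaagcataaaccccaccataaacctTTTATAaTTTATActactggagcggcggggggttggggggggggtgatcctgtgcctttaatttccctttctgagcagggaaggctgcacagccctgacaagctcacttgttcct
Cntnap2: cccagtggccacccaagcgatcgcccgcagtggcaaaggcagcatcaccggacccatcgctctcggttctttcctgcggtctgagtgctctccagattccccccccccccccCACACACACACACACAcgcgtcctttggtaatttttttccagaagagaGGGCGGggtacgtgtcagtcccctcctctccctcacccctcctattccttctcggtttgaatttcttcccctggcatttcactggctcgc
Upstream of Lrrtm4 there were 2 TATAAA matches, both on the strand opposite the gene and so read as TTTATA in the sequence shown. TATAAA was held on either strand by 12.4% of 32851 RefSeq promoters. Upstream of Cntnap2 there were 6 overlapping TGTGTG matches, which form 1 run read as CA on the strand shown, and 1 GGGCGG match. A later start listed for Lrrtm4 (chr6:80019393-80019642 for the 250 bases before it) had 4 TGTGTG matches, and a later start of Cntnap2 had 2 matches to the CCAAT box. TGTGTG was held by 17.9% of promoters and GGGCGG by 32.7%. TGTGTG was searched because Tdp-43 binds UG-rich RNA, and a match here is a description of the bases. Entries were found for 7 of the 10 genes.

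Of the other LRRTMs, none was called against control. With shTdp-43-2, Lrrtm3 read higher, as Lrrtm4 did, and Lrrtm1 and Lrrtm2 read lower. Lrrtm1, whose product is a postsynaptic neurexin ligand at excitatory synapses, read 11.23, 11.10 and 10.80 in shCont, 10.85, 10.71 and 10.49 with shTdp-43-1 and 10.87, 10.75 and 10.73 with shTdp-43-2. Most knockdown arrays lay below the controls, but the lowest control array overlapped both groups. The differences were -0.36 ± 0.121 (limma adjusted p = 0.0767) and -0.26 ± 0.121 (adjusted p = 0.156), and -0.31 ± 0.105 over both hairpins (adjusted p = 0.0586). Each of its 9 probe sets was lower with each hairpin, by 0.17 to 0.76 with shTdp-43-1 and by 0.06 to 0.67 with shTdp-43-2. The overlap rests on 1 array, shCont replicate 3, which is the lowest control, so leaving it out must widen the differences. Without it the values became -0.49, -0.38 and -0.43 (limma adjusted p = 0.0313, 0.0451 and 0.0211). Replicate 3 also read lowest in each hairpin group. Without shTdp-43-1 replicate 1, the first and the mean also passed (-0.45 and -0.35, adjusted p = 0.0465 and 0.0316). With any other single array left out, Lrrtm1 was not called with shTdp-43-1.

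Lrrtm3, a neurexin-binding member of the same family, read 10.78, 10.57 and 10.72 in shCont, 10.76, 10.66 and 10.62 with shTdp-43-1 and 10.90, 10.92 and 10.81 with shTdp-43-2. The shTdp-43-2 arrays all lay above the other 6, but the difference from control of 0.19 ± 0.0831 missed the threshold (95% interval 0.00 to 0.37, limma adjusted p = 0.140). It passed once each array was centred at its own median (0.27, adjusted p = 0.0128), after quantile normalization (0.23, adjusted p = 0.0342) and with the median of the probe sets (0.36, adjusted p = 0.0364). In the other settings Lrrtm3 was not called with shTdp-43-2. Lrrtm2, which shares neurexin binding with Lrrtm1, read 11.66, 11.43 and 11.57 in shCont, 11.67, 11.58 and 11.51 with shTdp-43-1 and 11.58, 11.47 and 11.34 with shTdp-43-2. Its groups overlapped, with differences of 0.03 (95% interval -0.17 to 0.23) and -0.09 (95% interval -0.30 to 0.11).

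Each of 3 LRRTM genes lies inside the span of an alpha-catenin gene in the RefSeq annotation: Lrrtm1 in Ctnna2, Lrrtm2 in Ctnna1 and Lrrtm3 in Ctnna3. These hosts were looked at after the values were seen. Ctnna2 differed from control by 0.01 and -0.05 with shTdp-43-1 and shTdp-43-2, Ctnna3 by 0.12 and 0.01, and none of these passed. Ctnna1 read 0.38 ± 0.106 higher with shTdp-43-2 (limma adjusted p = 0.0251), opposite in sign to Lrrtm2, and that call was lost without shCont replicates 1 or 2 or shTdp-43-2 replicates 1 or 2.

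**Figure D3:**
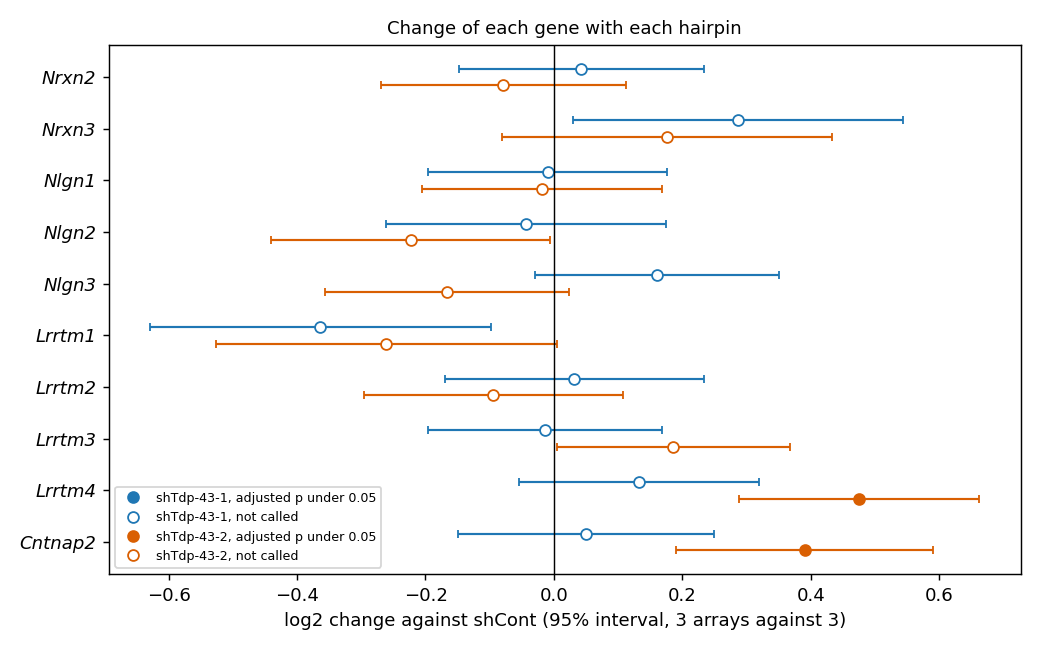
Change against shCont (log2, x axis) of each of the 10 genes with each hairpin, with 95% intervals as bars and filled points where the limma adjusted p was under 0.05. The 2 filled points are Lrrtm4 and Cntnap2 with shTdp-43-2, and the shTdp-43-1 and shTdp-43-2 points of Nlgn3 stand on opposite sides of 0.

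Among the neuroligins, the postsynaptic receptors of neurexins, limma called 0 of 3 against control with either hairpin (1 at an unadjusted p under 0.05, Nlgn2 with shTdp-43-2), and Nlgn3 separated the hairpins. Nlgn3 read 11.77, 11.73 and 11.71 on the shCont arrays, 12.01, 11.80 and 11.88 with shTdp-43-1, and 11.59, 11.68 and 11.44 with shTdp-43-2. The control arrays lay between the knockdown groups, with every shTdp-43-1 array above and every shTdp-43-2 array below. The differences from control were 0.16 ± 0.0867 (limma adjusted p = 0.253) and -0.17 ± 0.0867 (adjusted p = 0.208), which cancel in the mean of both hairpins (0.00, 95% interval -0.17 to 0.16). Between the hairpins Nlgn3 was 0.33 lower with shTdp-43-2 (-0.33 ± 0.0867, 95% interval -0.52 to -0.14, adjusted p = 0.0317), and 14 of its 15 probe sets were lower.

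Nlgn2, the neuroligin of inhibitory synapses, read 10.86, 10.64 and 10.68 in shCont, 10.86, 10.66 and 10.53 with shTdp-43-1 and 10.55, 10.52 and 10.43 with shTdp-43-2. All 3 shTdp-43-2 arrays lay below control, by 0.22 on average (95% interval -0.44 to -0.01 for the difference, limma adjusted p = 0.139), with 16 of 18 probe sets lower. The shTdp-43-1 difference was -0.04 (95% interval -0.26 to 0.17). Nlgn1, which acts at excitatory synapses, read 10.14, 10.26 and 10.15 in shCont, 10.23, 10.05 and 10.23 with shTdp-43-1 and 10.16, 10.26 and 10.07 with shTdp-43-2. It gave differences of -0.01 (95% interval -0.20 to 0.18) and -0.02 (95% interval -0.21 to 0.17).

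The neurexins themselves did not pass the test as whole genes, 1 of them having an unadjusted limma p under 0.05 (Nrxn3, 0.0321 with shTdp-43-1). Nrxn3 read 10.54, 10.69 and 10.51 in shCont, 11.05, 10.66 and 10.89 with shTdp-43-1 and 10.84, 10.88 and 10.55 with shTdp-43-2. The knockdown arrays were mostly higher but overlapped control, with differences of 0.29 ± 0.117 (limma adjusted p = 0.142) and 0.18 ± 0.117 (adjusted p = 0.327), and 31 and 30 of its 33 probe sets were higher. Nrxn2 read 10.39, 10.42 and 10.27 in shCont, 10.53, 10.34 and 10.33 with shTdp-43-1 and 10.37, 10.28 and 10.19 with shTdp-43-2. Its groups overlapped, with differences of 0.04 (95% interval -0.15 to 0.23) and -0.08 (95% interval -0.27 to 0.11).

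Within Nrxn3, 1 probe set stood apart from the rest of the gene with both hairpins. Neurexin genes are alternatively spliced at several sites. A probe set that moves against the rest of its gene can come from such a change. Exon positions were not used here, so whether this probe set marks a splice change was not tested. Probe set 4477627 read 10.08, 9.84 and 9.69 on the shCont arrays, 12.02, 10.97 and 11.24 with shTdp-43-1, and 11.32, 10.93 and 10.63 with shTdp-43-2. All 6 knockdown arrays were above all 3 controls. Its own signal was 2.92-fold and 2.13-fold that of control, while the rest of Nrxn3 moved by 0.25 and 0.15 on the log2 scale. Relative to the other 32 probe sets it stood at -0.47, -0.88 and -0.85 in shCont, at 1.00, 0.32 and 0.37 with shTdp-43-1 and at 0.50, 0.05 and 0.08 with shTdp-43-2.

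For probe set 4477627, shTdp-43-1 gave a usage difference of 1.30, shTdp-43-2 one of 0.95 and the mean of both 1.12 (limma diffSplice adjusted p = 0.00076, 0.0250 and 0.000394, adjusted over 248701 probe sets). It was the only one of the 201 probe sets called with shTdp-43-1 and over both hairpins, and 1 of 3 called with shTdp-43-2, beside 0.494%, 0.986% and 1.24% of all probe sets. The diffSplice test uses 1 spread for all probe sets of a gene. When each probe set kept its own spread, limma called 0 of the 201 in any comparison, beside 0.00523% of all probe sets with shTdp-43-1, 0.151% with shTdp-43-2, 0.0354% over both and 0% between the hairpins, so nearly all probe sets of the table also went uncalled by this test. An unadjusted limma p below 0.05 was reached by 14 of the 201 with shTdp-43-1 (6.97%, beside 7.79% of all probe sets), by 23 with shTdp-43-2 (11.4%, beside 9.37%), by 19 over both (9.45%, beside 9.13%) and by 10 between the hairpins (4.98%, beside 6.98%). Probe set 4477627 then had an adjusted p of 0.148, 0.150 and 0.0832 (unadjusted p from limma 0.000138, 0.00135 and 0.00014). The shTdp-43-2 call was also lost without shCont replicate 2 (adjusted p = 0.187), shCont replicate 3 (0.200), shTdp-43-1 replicate 3 (0.0502) or shTdp-43-2 replicate 1 (0.229).

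**Figure D4:**
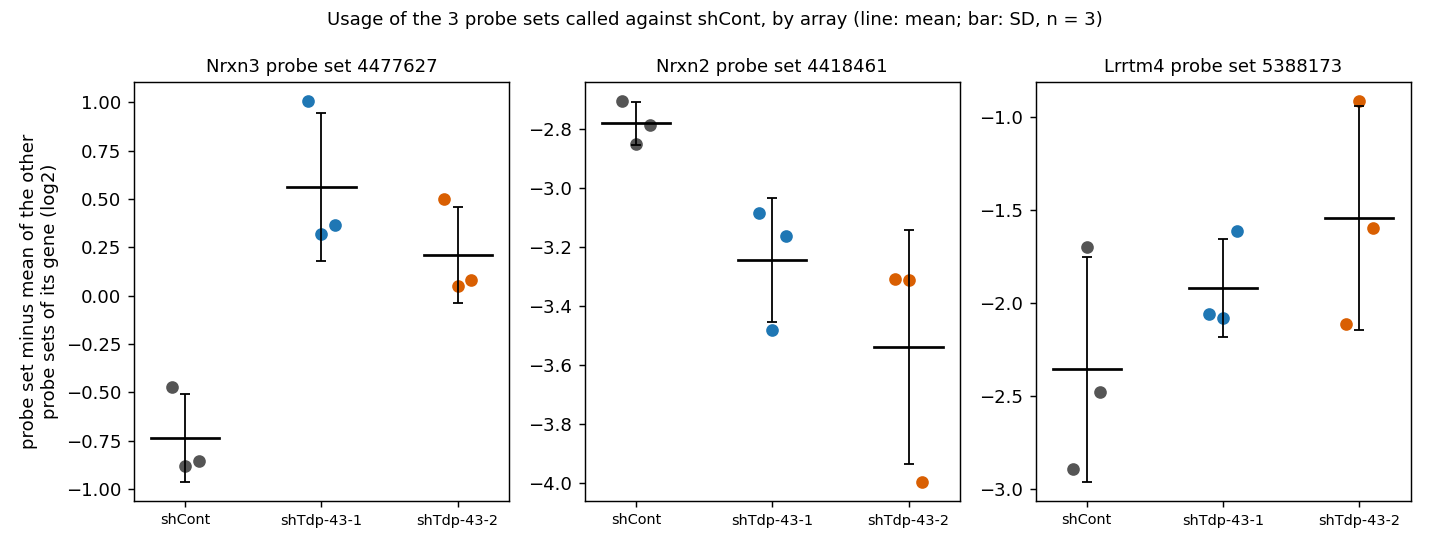
Difference between a probe set and the mean of the other probe sets of its gene (log2, y axis) on each array, by hairpin (x axis), for the 3 probe sets called against shCont, with mean and SD (n = 3 arrays a group). All 6 knockdown arrays of Nrxn3 probe set 4477627 lie above the 3 control arrays, and all 6 of Nrxn2 probe set 4418461 lie below them.

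The other usage calls against control were smaller and were lost without some single arrays. Nrxn2 probe set 4418461, dim at 7.74, 7.62 and 7.53 in shCont, read 7.51, 6.93 and 7.23 with shTdp-43-1 and 7.12, 7.03 and 6.28 with shTdp-43-2. All 6 knockdown arrays were below all controls, and the usage difference was -0.46 and -0.76 (limma diffSplice adjusted p = 0.637 and 0.0276). The shTdp-43-2 call was lost without any 1 of the shCont arrays (adjusted p = 0.117, 0.0864 and 0.102 for replicates 1, 2 and 3), without shTdp-43-2 replicate 3 (0.521) and with its own spread (0.201). The Lrrtm4 call for probe set 5388173 held in 8 of 18 other settings and had an adjusted p of 0.638 without shCont replicate 1, 0.294 without shCont replicate 3, 0.0576 and 0.0802 without shTdp-43-1 replicates 2 and 3, 0.448 and 0.134 without shTdp-43-2 replicates 2 and 3, and 0.507 with its own spread. Of the 201 probe sets, 14 had all 6 knockdown arrays on 1 side of all controls relative to their gene, which is 6.97%, beside 4.64% of all probe sets. The probe sets that moved furthest in the remaining genes, such as 4724174 in Lrrtm1 (-0.45 over both hairpins), 5566817 in Lrrtm3 (-0.30), 5123282 in Nlgn1 (-0.33), 4717623 in Nlgn2 (0.32), 5071304 in Nlgn3 (-0.31) and 4766390 in Lrrtm2 (-0.22), were not called.

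Comparing the hairpins directly, 3 of the 10 genes differed, beside 11.5% of all genes (4.22% higher and 7.31% lower): Lrrtm4 and Cntnap2 were higher and Nlgn3 lower with shTdp-43-2. The arrays of the hairpins did not overlap for 4 of the 10, beside 27.9%, and 2 of the 201 probe sets, both in Nrxn2, differed in usage, beside 0.44%. Neither the Lrrtm4, the Cntnap2 nor the Nlgn3 difference passed in every setting. With only the compared groups in the fit, 0 of the 10 genes were called. With the median of probe sets, or with genes of at least 1 probe set, 1 was called. Single arrays left out also mattered. Lrrtm4 lost the call without shTdp-43-1 replicate 2 (adjusted p = 0.0691) or 3 (0.0768) and without shTdp-43-2 replicate 1 (0.0524) or 2 (0.0667). Cntnap2 lost it without shCont replicate 2 (0.0550), shTdp-43-1 replicate 2 (0.126) or 3 (0.0986) and shTdp-43-2 replicate 1 (0.118) or 2 (0.0990). Nlgn3 lost it without shCont replicate 2 (0.0533), shTdp-43-1 replicate 1 (0.0949) or 3 (0.0769) and shTdp-43-2 replicate 1 (0.0852) or 3 (0.0811). Every sign was kept in these settings.

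The proteins that these adhesion molecules bind, anchor to or are cut by were described from lists of 88 genes, of which 82 were measured. Over the mean of both hairpins, 5 rose and 16 fell, which is 25.6% called against 19.3% of all genes. With shTdp-43-1, 3 rose and 10 fell (15.9%, beside 11.1%), and with shTdp-43-2, 5 rose and 17 fell (26.8%, beside 21.9%). The median change of the 82 was -0.08 over both hairpins, against 0.00 over all genes. Of all genes, 7.42% were called higher and 11.9% lower over both hairpins. The counts in the small lists below are given as descriptions beside these shares.

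Among 13 extracellular partners of neurexins, 3 rose and 4 fell over both hairpins, beside 7.42% and 11.9% of all genes. Of the 4 that fell, Nxph3 and Nxph4 encode neurexophilins, which bind alpha-neurexins, and Cbln1 and Cbln4 encode cerebellins, which bridge neurexins to postsynaptic receptors. Nxph3 read 8.38, 8.05 and 8.16 in shCont, 7.85, 7.62 and 7.50 with shTdp-43-1 and 7.51, 7.39 and 7.42 with shTdp-43-2, all 6 below control. It fell by 0.54 and 0.76 with shTdp-43-1 and shTdp-43-2 (limma adjusted p = 0.0100 and 0.00059). Cbln4 read 9.49, 9.23 and 9.46 in shCont, 9.53, 9.23 and 9.02 with shTdp-43-1 and 8.54, 8.44 and 8.34 with shTdp-43-2. Its fall belonged to shTdp-43-2 (-0.95 ± 0.125, limma adjusted p = 0.00034), with -0.13 ± 0.125 with shTdp-43-1 (adjusted p = 0.515), and the hairpins differed by -0.82 (adjusted p = 0.00192). Nxph4 likewise fell by 0.86 with shTdp-43-2 (by limma, adjusted p = 0.00122), with -0.35 with shTdp-43-1 (adjusted p = 0.130). Cbln1 fell by 0.66 with shTdp-43-1 (by limma, adjusted p = 0.00759), with -0.30 with shTdp-43-2 (adjusted p = 0.119), and its fall over both (-0.48, adjusted p = 0.0106) was lost without shCont replicate 1 (-0.44, adjusted p = 0.0569) or 2 (-0.45, 0.0530). The 3 that rose, named after their values were seen, were Clstn3 (0.30), C1ql3 (0.30) and Grid1 (0.26). Clstn3 lost the call without shCont replicate 3 (limma adjusted p = 0.0788), and Grid1 lost it without any 1 of the 3 shCont arrays, of shTdp-43-1 replicates 1 and 3 or of shTdp-43-2 replicates 1 and 2 (adjusted p from 0.0675 to 0.162). Of 8 inhibitory neuron markers, 1 rose and 3 fell with shTdp-43-2, and their part in these results was not tested.

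**Figure D5:**
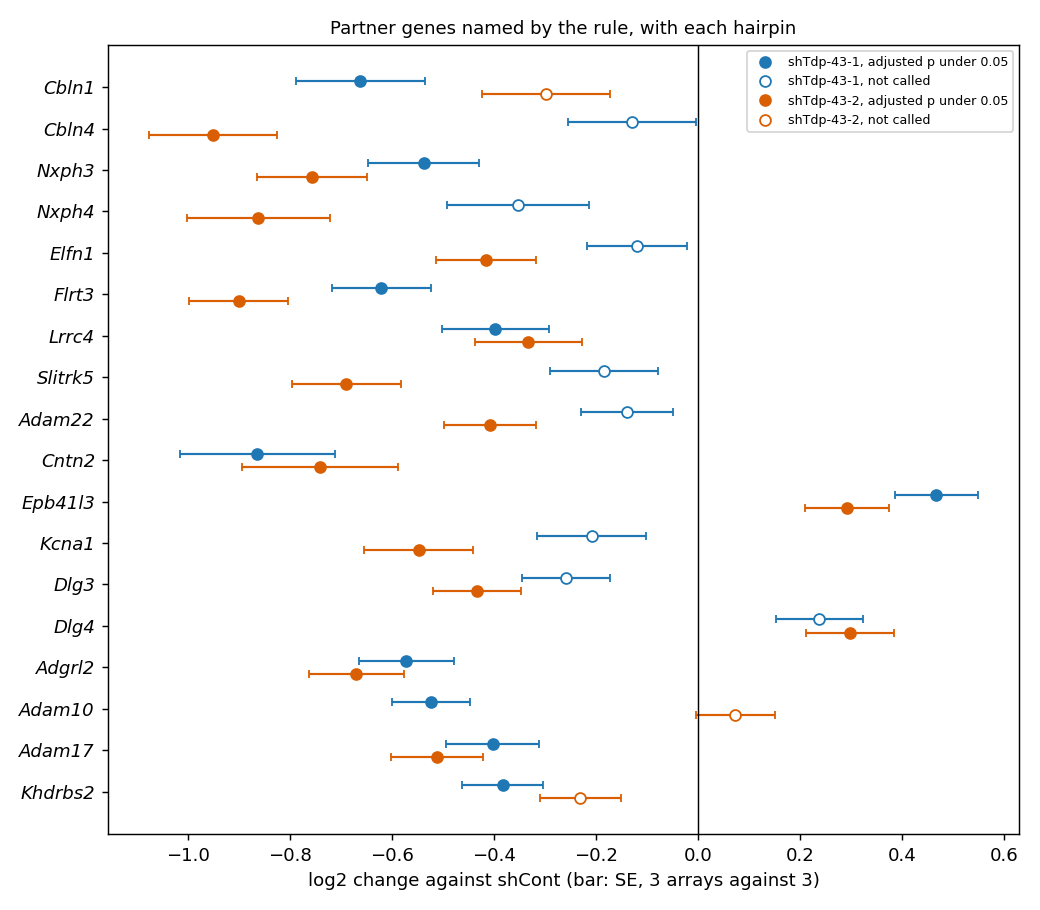
Change against shCont (log2, x axis) of the partner genes named by rule, with each hairpin, with the SE as bars and filled points where the limma adjusted p was under 0.05. Most filled points lie left of 0, among them Flrt3, Cntn2, Adgrl2 and Nxph3 with both hairpins, and Epb41l3 and Dlg4 lie to the right.

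Inside the presynaptic terminal, none of 6 neurexin-binding scaffold genes passed over both hairpins with limma (1 at an unadjusted p under 0.05), but 2 fell with shTdp-43-2, beside 14.1% of all genes lower. They were Lin7a (-0.26, limma adjusted p = 0.0287) and Lin7c (-0.24, adjusted p = 0.0286), named after their values were seen, whose products join Cask in a scaffold complex. Among 13 postsynaptic scaffold genes, 1 fell and 1 rose over both hairpins, beside 11.9% and 7.42% of all genes. Dlg3 fell (-0.35 ± 0.0752, limma adjusted p = 0.00843) and Dlg4 rose (0.27 ± 0.0743, adjusted p = 0.0269). Their products, SAP102 and PSD-95, both anchor glutamate receptors and bind the tails of neuroligins. The Dlg4 call was lost without shCont replicates 1 (adjusted p = 0.0606), 2 (0.0782) or 3 (0.117) or shTdp-43-1 replicate 2 (0.0514). Of 5 genes whose products mask or cut neurexins and neuroligins, 2 fell over both hairpins, beside 11.9% of all genes. They were the membrane proteases Adam17 and Adam10. Adam17 fell by 0.46 (limma adjusted p = 0.00228), with all 6 knockdown arrays below control. Adam10 read 10.99, 11.01 and 11.04 in shCont, 10.40, 10.50 and 10.58 with shTdp-43-1 and 11.05, 11.15 and 11.06 with shTdp-43-2, so that only the shTdp-43-1 arrays were below control. It fell by 0.52 with shTdp-43-1 (by limma, adjusted p = 0.002), stood at 0.07 with shTdp-43-2 (adjusted p = 0.549) and differed between the hairpins by 0.60 (adjusted p = 0.000701). Its fall over both (-0.23, adjusted p = 0.0353) was lost without any 1 of the shCont arrays, of shTdp-43-1 replicates 1 and 2 or of shTdp-43-2 replicates 1 and 3 (adjusted p from 0.0547 to 0.117).

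Of 13 partners and relatives of Cntnap2, 1 rose and 3 fell over both hairpins, beside 7.42% and 11.9% of all genes. Cntn2, contactin-2, the axonal partner of Caspr2, read 10.37, 10.21 and 10.13 in shCont, 9.70, 9.17 and 9.25 with shTdp-43-1 and 9.75, 9.50 and 9.24 with shTdp-43-2, all 6 below control. It fell by 0.86 and 0.74 (limma adjusted p = 0.00506 and 0.00492) and so went the other way from Cntnap2 with shTdp-43-2. Epb41l3, whose product links Caspr2 to the cytoskeleton, read 9.29, 9.21 and 9.35 in shCont, 9.71, 9.82 and 9.73 with shTdp-43-1 and 9.52, 9.69 and 9.52 with shTdp-43-2, all 6 above control. It rose by 0.38 over both hairpins (limma adjusted p = 0.00373). Kcna1, a Kv1 channel subunit, fell by 0.55 with shTdp-43-2 (by limma, adjusted p = 0.00378), with -0.21 with shTdp-43-1 (adjusted p = 0.232). Its fall over both (-0.38, adjusted p = 0.0155) was lost without shCont replicate 1 (-0.29, adjusted p = 0.0947) or 2 (-0.36, 0.0677). Adam22, a receptor that binds the same channel complex, fell by 0.27 over both, a call lost without any 1 of the shCont arrays, of shTdp-43-1 replicates 2 and 3 or of shTdp-43-2 replicates 1 and 3 (limma adjusted p from 0.0512 to 0.106).

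None of 17 other leucine-rich repeat adhesion genes rose over both hairpins, and 4 fell, beside 7.42% and 11.9% of all genes. Flrt3, which binds latrophilins and unc5 receptors, read 10.38, 10.25 and 10.09 in shCont, 9.71, 9.59 and 9.56 with shTdp-43-1 and 9.30, 9.48 and 9.25 with shTdp-43-2, all 6 below control. It fell by 0.62 and 0.90 (limma adjusted p = 0.00271 and 0.000101). Slitrk5 fell by 0.69 with shTdp-43-2 (by limma, adjusted p = 0.000886), with -0.18 with shTdp-43-1 (adjusted p = 0.279), and the hairpins differed by -0.50 (adjusted p = 0.0106). The other two were Lrrc4 (-0.37) and Elfn1 (-0.27). Lrrc4 lost the call without shCont replicate 1 (limma adjusted p = 0.0647) or 2 (0.0772), and Elfn1 without any 1 of the shCont arrays, of shTdp-43-1 replicates 2 and 3 or of shTdp-43-2 replicates 1 and 3 (adjusted p from 0.0650 to 0.194). Of 9 other presynaptic hub genes, 1 fell over both hairpins, beside 11.9% of all genes, and 2 fell with shTdp-43-2, beside 14.1%. Adgrl2, latrophilin-2, fell with each hairpin, by 0.57 and 0.67 (limma adjusted p = 0.0034 and 0.000513). Of 6 genes for RNA-binding proteins that regulate neurexin splicing, 1 fell over both hairpins, beside 11.9% of all genes. It was Khdrbs2 (SLM1), which fell by 0.38 with shTdp-43-1 (by limma, adjusted p = 0.0114) and by 0.31 over both (adjusted p = 0.00969). The latter call was lost without shCont replicate 3 (-0.27, adjusted p = 0.0509). Nova1, Nova2, Ptbp2, Khdrbs1 and Khdrbs3 did not pass over both hairpins.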

How the data were processed

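The deposited table holds log2 values per probe set for 9 exon arrays. Per the labels' descriptions, the authors ran Expression Console's exon-level RMA. The build mm9 comes from the submitters' processing notes, and no software version was given there. Of 1256831 probe sets, 318760 had 1 gene symbol in the platform annotation, 6684 several and 931387 none, and 20744 that read 0 on all arrays took no part. Symbols were updated through RefSeq names (4227 of them, with 18006 current and 63 kept as they were). A gene value is the mean of the probe sets at or above the table median of 6.07, for genes with at least 3 of them, which gave 248701 probe sets in 16770 genes. The mean of probe sets says nothing of levels between genes, which were not compared.

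All 9 arrays were fitted together in limma 3.58.1 (R 4.3.3) with 6 residual degrees of freedom, and p-values were Benjamini-Hochberg adjusted over all genes, threshold 0.05. Each probe set was set against the rest of its gene with limma's diffSplice, adjusted over all probe sets. The scripts were tested on simulated data. An exact two-sided permutation test of 3 against 3 arrays cannot go below 0.1 and was not used. The number of arrays limits the precision. Alternatives were other filters on dim probe sets, array centring, quantile normalization, genes with fewer probe sets, the median of probe sets, a replicate block, eBayes with a trend, only the compared groups, and each array left out. A gene value without the probe sets called in the usage test, and a spread for each probe set, were chosen after seeing the data.

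The genes and lists were chosen with earlier results of these data known. Text names all 10 genes, every probe set called in the usage test, the probe set with the largest usage difference of each gene, and at most 4 called genes of each partner list by size of change over both hairpins. Replicate numbers were not treated as pairs. Promoter bases come from RefSeq (GRCm38.p6), which is not the build of the arrays, so none was placed against a probe set.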

Additional observations from a re-analysis of the deposited data

Results flagged for a closer look

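The hairpins, which lowered Tardbp to a similar level, differed from each other in 3 of the 10 adhesion genes by limma's test of that difference, beside 11.5% of all genes. Lrrtm4 was 0.34 higher with shTdp-43-2 than with shTdp-43-1, Cntnap2 was 0.34 higher and Nlgn3 differed by -0.33. In all 3, every shTdp-43-2 array lay on 1 side of every shTdp-43-1 array, as in 27.9% of all genes. None of the 3 calls held in every setting, and with only the compared groups in the fit 0 of the 10 genes were called.

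Within Nrxn2, 2 probe sets differed in usage between the hairpins (limma diffSplice), beside 0.44% of all probe sets. Probe set 5124167 stood 0.99 higher relative to the rest of the gene with shTdp-43-2 (adjusted p = 0.00219) and probe set 5039105 stood 0.88 higher (adjusted p = 0.0113). Probe set 5124167 read 7.59, 7.20 and 6.89 on the shCont arrays, 6.46, 6.71 and 6.57 with shTdp-43-1 and 7.82, 7.61 and 6.84 with shTdp-43-2, so the hairpins did not overlap. Its call was lost without shTdp-43-1 replicate 1 (adjusted p = 0.0572) or shTdp-43-2 replicate 1 (0.0797). Probe set 5039105 read 8.25, 9.22 and 8.27 on the shCont arrays, 7.91, 8.83 and 8.01 with shTdp-43-1 and 9.15, 8.38 and 9.45 with shTdp-43-2, so the groups overlapped. With a spread of their own the limma adjusted p was 0.301 and 0.695 (unadjusted p = 0.00221 and 0.0441), in a test that called 0 of 248701 probe sets between the hairpins.

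Of the 82 partner genes measured, 9 differed between the hairpins (11%, beside 11.5% of all genes). Of these, 4 were among those named by rule, which were picked for a call over both hairpins: Cbln4 by -0.82, Nxph4 by -0.51, Slitrk5 by -0.50 and Adam10 by 0.60. The Cbln4, Slitrk5 and Adam10 differences were called in 18 of 18 other settings. That of Nxph4 was lost without shTdp-43-1 replicate 1 (limma adjusted p = 0.0860) or 2 (0.124) and without shTdp-43-2 replicate 1 (0.128) or 3 (0.0757).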

How the results depend on the processing

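No result turned its sign with a call on either side. The calls of Lrrtm4 and Cntnap2 with shTdp-43-2 held throughout. The number of the 10 genes called over both hairpins, 1 as reported, was 3 with centred arrays, 2 after quantile normalization, 0 with the median of probe sets, 2 with a replicate block and 3 with a trend. With shTdp-43-1 it went from 0 to 1 with the replicate block or the trend, the gene being Lrrtm1 (adjusted p = 0.0201 and 0.0434). Between hairpins it went from 3 to 1 with genes of at least 1 probe set or the median of probe sets and to 0 with only the compared groups. Leaving out 1 array gave 0 to 1 genes with shTdp-43-1, 2 to 3 with shTdp-43-2, 0 to 2 over both and 0 to 3 between hairpins. Probe sets called for usage over both hairpins, 1 as reported, were 2 with no dim filter or centred arrays and 4 with the replicate block, and with shTdp-43-1 the block gave 2. A spread for each probe set, added after seeing the data, gave 0 in all 4 comparisons, as it did for nearly all probe sets of the table (0% to 0.151% called). Leaving out 1 array gave 1 to 2 with shTdp-43-1, 0 to 5 with shTdp-43-2, 1 to 4 over both and 0 to 3 between hairpins. With the median of probe sets, the genes called among all tested were 1041 with shTdp-43-1, 2103 over both and 1198 between hairpins, against 1865, 3234 and 1934. Leaving out 1 array gave 784 to 2224, 1631 to 3487 and 964 to 1926, and 2484 to 3894 with shTdp-43-2 against 3667. The cause of these moves was not tested. Whether replicate numbers mark pairs is not settled: deviations from the group means correlated above 0.1 in 6 of 9 pairs of same-numbered arrays (r from -0.38 to 0.59), and in 10 of 18 comparisons an array's best match had its own number. With the block Lrrtm1 was also called with shTdp-43-2 and over both (adjusted p = 0.0446 and 0.0133). Centring moved the median change of all genes by less than 0.1 in every comparison. Differences of single dim probe sets are limited by their signal near the table median.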

Other observations

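Beyond the genes named by rule, 3 more of the partner genes that differed between the hairpins are named after their values were seen. In all, 9 of 82 partner genes differed (11%, beside 11.5% of all genes), and not all of them are named here. Thbs1, which encodes the secreted neuroligin-binding protein thrombospondin-1, fell by 0.67 with shTdp-43-1 (by limma, adjusted p = 0.00659) and stood at 0.27 with shTdp-43-2, a difference of 0.94 ± 0.125 (adjusted p = 0.000832). Lin7b, a scaffold that joins neurexins through Cask, differed by -0.61 ± 0.117 (adjusted p = 0.00678), and Ptprd, a presynaptic receptor phosphatase that binds Slitrk proteins, by -0.34 ± 0.0748 (adjusted p = 0.0129).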
